A study of Mus musculus with 2 samples.

Results

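The AP-1 family genes examined here are Jun, Junb, Jund, Fos, Fosb, Fosl2 and Batf, 7 of the 32285 genes counted in the library. They are taken by name, and the rule sets no limit on a measured value. All 7 were detected, and each is followed through 8 hashtag populations of sorted thymic cells, through 5 classes of cells within 4 of these populations, and through cell states and sequencing depth within the other 4.

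AP-1 is a family of transcription factors that bind DNA as pairs through a leucine zipper. Jun proteins can pair with one another or with Fos proteins, Fos proteins need a Jun partner, and Batf pairs with Jun proteins and binds together with Irf4 or Irf8. Jun and Fos genes belong to the immediate-early genes, which T cells transcribe shortly after the T cell receptor activates MAP kinases, and AP-1 acts beside NFAT on many targets of the activated T cell. The same genes are also known to respond to tissue dissociation and stress.

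The study asked what Kidins220, a scaffold protein of receptor signalling, does in invariant natural killer T (iNKT) cells, which carry a semi-invariant T cell receptor for lipids shown by CD1d. C57BL/6 mice without Kidins220 in T cells (T-KO) came from a cross of floxed Kidins220 with LckCre, in which the proximal Lck promoter drives Cre from early T cell development on. They stood against Ctrl mice, and the thymi of 4 animals were combined per genotype, so that no animal can be told from another; the ages of these mice are not given with the samples. Stage 0 cells (TCRβ+ CD1dt+ CD24+ NK1.1-) and stage 3 cells (TCRβ+ CD1dt+ NK1.1+ CD24- CD44+) were each sorted in 2 parallel rounds, and the 8 populations were marked with hashtag antibodies and run as a single 5′ droplet library.

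Nearly all hashtag UMIs (99.9%) lay on the rows numbered 11 to 18 of the matrix, but neither the labels nor the methods tie a row to its stage or genotype. The rows are therefore given by number, as 8 populations without a label and with 1 value each. There is no test between them, and no row stands for a genotype. Of 16179 barcodes, 12147 had at least 1000 genes and at most 5% mitochondrial UMIs, and 10007 of these also held at least 80% of at least 10 hashtag UMIs on 1 row. Their sums ran from 2283162 UMIs in row 16 to 14601545 in row 13. Levels are given as CPM, the UMIs of a gene in each 1000000 gene UMIs of the same cells. Their exact Poisson 95% intervals cover counting error only, and in such sums fewer cells with a transcript and less of it per cell cannot be told apart. Kidins220 itself had 13.9 to 35.2 CPM in the 8 rows, which checks no label.

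The even-numbered rows (12, 14, 16 and 18, with 5758 cells) carried the genes of the NK1.1+ type of iNKT cell. Klrb1c, which encodes NK1.1, had 328 to 444 CPM there and 4.78 to 6.57 CPM in the odd-numbered rows, and all 7 genes of the iNKT1 list reached 20 CPM. Gzma of that list went the other way, with a median of 124 CPM in the even-numbered rows and 221 CPM in the odd-numbered ones. The 4249 cells of the odd-numbered rows (11, 13, 15 and 17) were mixed and were split by the first match of at least 2 Cd79a UMIs (810 cells, Cd79a+), at least 5 Cst3 UMIs (972 cells, Cst3+), at least 1 Rag1 UMI (418 cells, Rag1+) and at least 2 Ikzf2 UMIs (1106 cells, Ikzf2+), with 943 cells remaining. The names follow the genes used. With these 4 genes left out of the marker lists, B cell genes summed to 22480 to 25469 CPM in Cd79a+ cells, dendritic and myeloid genes to 5562 to 8303 CPM in Cst3+ cells (2875 to 3130 in Cd79a+ cells), genes of CD4 CD8 double-positive thymocytes to 1214 to 1797 CPM in Rag1+ cells (910 to 1107 in the remaining cells), and genes of Helios+ post-selection cells to 1848 to 2142 CPM in Ikzf2+ cells, which overlapped the 1151 to 1970 CPM of the remaining cells. B cell genes also summed to 19070 to 28165 CPM in Cst3+ cells, where 2 of these 5 reached 20 CPM. The double-positive sum did not hold for each gene. Cd4 had a lower median in Rag1+ than in the remaining cells, with overlapping ranges (11.9 to 61.4 against 17.2 to 103 CPM). Medians of Cd8a (104 against 71.8 CPM) and Cd8b1 (338 against 171 CPM) were higher in Rag1+ cells. Trav11, the V segment of the invariant receptor, had a median of 48.2 CPM in the even-numbered rows and 0.731 CPM in Ikzf2+ cells.

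The promoters of the members are shown first, since AP-1 and CREB sites near the start are a known feature of immediate-early genes. In the RefSeq promoters of GRCm38.p6, 250 bases before to 50 after the annotated start, both strands were searched for TGANTCA (the AP-1 site), TGANNTCA (its 8-base form), TGACG (the core of a cyclic AMP response element) and the CArG box of SRF. TGANNTCA and TGACG can overlap, but no member had both. A window of 30 bases is printed for each match wholly before the start (the other match of Jun does not lie wholly before it), 5′ to 3′ on the gene's strand, with the match in capitals.
Jun, chr4:95052249-95052278, minus strand: aagcctcggggTGACATCAtgggctatttt
Jund, chr8:70697667-70697696, plus strand: cgttgaggcagTGAAATCAccctcagtctt
Junb, chr8:84978837-84978866, minus strand: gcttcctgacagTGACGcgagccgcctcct
Fos, chr12:85473812-85473841, plus strand: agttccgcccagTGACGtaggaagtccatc
Fos, chr12:85473749-85473778, plus strand: ggggcgtagagtTGACGacagagcgcccgc
Fosb, chr7:19310088-19310117, minus strand: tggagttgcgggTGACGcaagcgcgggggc
Batf, chr12:85686610-85686639, plus strand: tttctaacttgtTGACGtttccgcccatgt
The capitals lay at -45 to -38 from the start in Jun, at -61 to -54 in Jund, at -106 to -102 in Junb, at -66 to -62 and -129 to -125 in Fos, at -60 to -56 in Fosb and at -98 to -94 in Batf. Jun had 2 matches of TGANNTCA and Jund had 1, where 14.1% of 32851 promoters hold at least 1. TGACG was present in Junb, Fos, Fosb and Batf, against 20.8% of all promoters. No member held TGANTCA (7.81% of promoters) or the CArG box (1.63%) in this window, and Fosl2 had none of the 4 motifs. A match is only a description of these letters.

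In the GENCODE annotation of the same build, Jun (chr4:95049034-95052222, minus strand), Junb (chr8:84974484-84978718, minus strand) and Jund (chr8:70698949-70700616, plus strand) consist of 1 exon each. The RefSeq start of Jund lies upstream of that GENCODE start. Fos (chr12:85473890-85477273, plus strand) and Fosl2 (chr5:32135801-32157842, plus strand) have 4 exons, Batf (chr12:85686669-85709087, plus strand) has 3, and the coding transcripts of Fosb (chr7:19302696-19310051, minus strand) have 3 to 5. The window searched for Fosl2 (chr5:32136222-32136521) lies wholly downstream of its GENCODE start, so the bases before that start were not searched.

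Over the 8 rows, the members fell into 2 arrangements. Junb, Jund, Fosl2 and Batf lay higher in every even-numbered row than in every odd-numbered row. Jun, Fos and Fosb overlapped between the 2 kinds of row and varied within each. The share of all genes that separate in this way was not counted, so the split is a description and no result about the family. Junb, a Jun protein induced early and known in T helper and effector programmes, had 1240 CPM in row 12, 1299 in row 14, 780 in row 16 and 998 in row 18, against 359, 279, 207 and 231 CPM in rows 11, 13, 15 and 17. Jund, the most constantly transcribed Jun gene, had 1127, 1221, 1041 and 1136 CPM in the even-numbered rows and 535, 526, 427 and 438 CPM in the odd-numbered ones. Both Jun genes were thus separated by row kind, and within the even-numbered rows Junb ranged far more widely than Jund.

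Fosl2, which encodes Fra-2, had 26.9, 31.9, 29.8 and 36.3 CPM in rows 12, 14, 16 and 18 and only 7.18, 4.52, 4.10 and 5.00 CPM in rows 11, 13, 15 and 17. Batf had 33.5, 34.2, 42.0 and 39.2 CPM in the even-numbered rows and 27.4, 22.1, 22.3 and 15.2 CPM in the odd-numbered ones. The separation of Batf was narrow, since the interval of row 12 (29.1 to 38.5 CPM) overlapped that of row 11 (24.2 to 30.9 CPM).

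Jun had 427, 576, 215 and 325 CPM in rows 12, 14, 16 and 18 and 579, 473, 278 and 310 CPM in rows 11, 13, 15 and 17. Fos, the founding Fos protein, followed with 276, 457, 125 and 282 CPM in the even-numbered rows and 456, 406, 202 and 262 CPM in the odd-numbered ones. Fosb had 53.7, 77.7, 28.5 and 57.5 CPM against 73.6, 75.2, 38.4 and 61.8 CPM. For these 3 genes row 16 was the lowest of all 8, row 15 was the lowest odd-numbered row, and the level in row 14 was within the counting intervals of the highest odd-numbered row. Between the highest and the lowest of the 8 rows, all 7 members differed at least 2-fold (after 10 CPM were added to each value), 6 of them among the 6483 genes tested, of which 23.6% did. Fosl2 was outside that set because its median over the rows was under 20 CPM. The ratio was 6.04-fold for Junb, 3.45-fold for Fos, 3.28-fold for Fosl2, 2.81-fold for Jund, 2.62-fold for Jun, 2.28-fold for Fosb and 2.07-fold for Batf, which fell to a log2 ratio of 0.89 in cells with at most 4000 genes.

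**Figure D1:**
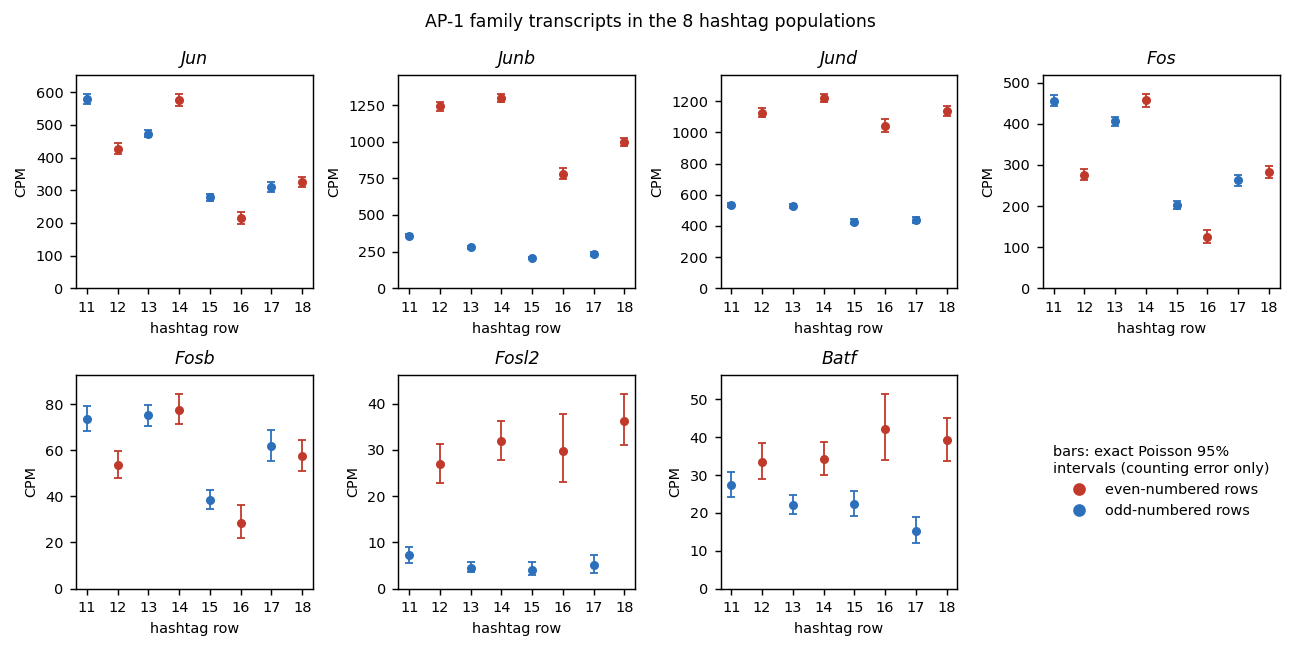
CPM of each AP-1 member (vertical axes, linear and starting at 0, with a separate scale for each gene) in hashtag rows 11 to 18; bars are exact Poisson 95% intervals of the counts. Junb, Jund, Fosl2 and Batf are higher in the red even-numbered rows than in the blue odd-numbered rows, while Jun, Fos and Fosb overlap and are lowest in row 16.

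The 5 classes were then read one member at a time. Jun was present in every class. Its levels in rows 11, 13, 15 and 17 were 564, 713, 448 and 354 CPM in Cd79a+ cells, 656, 603, 411 and 504 in Cst3+ cells, 695, 461, 247 and 324 in the remaining cells, 372, 311, 212 and 223 in Ikzf2+ cells, and 235, 234, 107 and 210 in Rag1+ cells. By median the order was Cst3+ (553 CPM), Cd79a+ (506), remaining (393), even-numbered rows (376), Ikzf2+ (267) and Rag1+ (222), and each class overlapped the next in range.

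Junb was ordered more sharply. It had 369, 491, 361 and 469 CPM in Cd79a+ cells, 435, 345, 306 and 317 in Cst3+ cells, 230, 247, 174 and 228 in Ikzf2+ cells, 347, 186, 167 and 192 in the remaining cells, and 92.2, 68.9, 58.1 and 81.5 CPM in Rag1+ cells. The even-numbered rows lay wholly above Cd79a+ cells, Cst3+ cells lay wholly above Ikzf2+ cells, and the remaining cells lay wholly above Rag1+ cells, whereas Cd79a+ overlapped Cst3+ and Ikzf2+ overlapped the remaining cells. The share of all genes whose classes lie apart in this way was not counted. Here and for the other members, the order of classes is therefore a description and no result about the family.

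Jund had 648, 789, 719 and 556 CPM in Cd79a+ cells, 513, 513, 465 and 485 in Ikzf2+ cells, 499, 477, 437 and 469 in Cst3+ cells, 568, 487, 347 and 420 in the remaining cells, and 349, 311, 287 and 296 in Rag1+ cells. The even-numbered rows stood apart from Cd79a+ cells and these from Ikzf2+ cells, and the classes below overlapped one after the other.

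Among the Fos proteins, Fos was high in the classes with antigen-presenting cell markers. It had 635, 713, 420 and 547 CPM in Cst3+ cells and 579, 760, 371 and 372 CPM in Cd79a+ cells, but 198, 181, 92.9 and 168 in the remaining cells, 130, 184, 70.7 and 166 in Ikzf2+ cells, and 111, 138, 51.4 and 157 in Rag1+ cells. The even-numbered rows, with a median of 279 CPM, lay between these 2 sets of classes and overlapped both. The chaperone gene Hspa1a, which also responds to cell stress, had 502 to 858 CPM in Cst3+ cells, 90.4 to 319 in Cd79a+ cells and 70.4 to 259 in Ikzf2+ cells, and its part in these levels was not tested.

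Fosb had the same division, with 110, 155, 71.9 and 138 CPM in Cd79a+ cells and 93.5, 107, 64.5 and 117 in Cst3+ cells. It had 35.6, 37.5, 24.2 and 31.0 CPM in the remaining cells, 20.3, 35.5, 21.9 and 31.2 in Ikzf2+ cells, and 12.3, 36.6, 15.2 and 51.2 in Rag1+ cells. The lowest of these values, in Rag1+ cells of row 11, rested on 8 UMIs (interval 5.30 to 24.2 CPM).

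Fosl2 was scarce in all classes of the odd-numbered rows. It had 11.02, 9.22, 7.80 and 10.2 CPM in Ikzf2+ cells and 11.2, 4.75, 5.17 and 4.35 CPM in Cst3+ cells, and at most 3.86 CPM in the others. In Rag1+ cells it had 4 UMIs in all, and the 0 UMIs of row 15 allow up to 2.08 CPM. The even-numbered rows, at 26.9 to 36.3 CPM, were wholly above Ikzf2+ cells.

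Batf had 40.9, 42.6, 45.7 and 39.1 CPM in Cd79a+ cells, 41.5, 26.8, 21.0 and 19.3 in Ikzf2+ cells, 23.6, 14.9, 31.0 and 17.4 in Cst3+ cells, 15.9, 14.7, 16.3 and 7.01 in the remaining cells, and 9.22, 6.18, 4.51 and 3.79 in Rag1+ cells. Cd79a+ cells and the even-numbered rows (median 36.7 CPM) overlapped, and so did each later pair in the order.

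**Figure D2:**
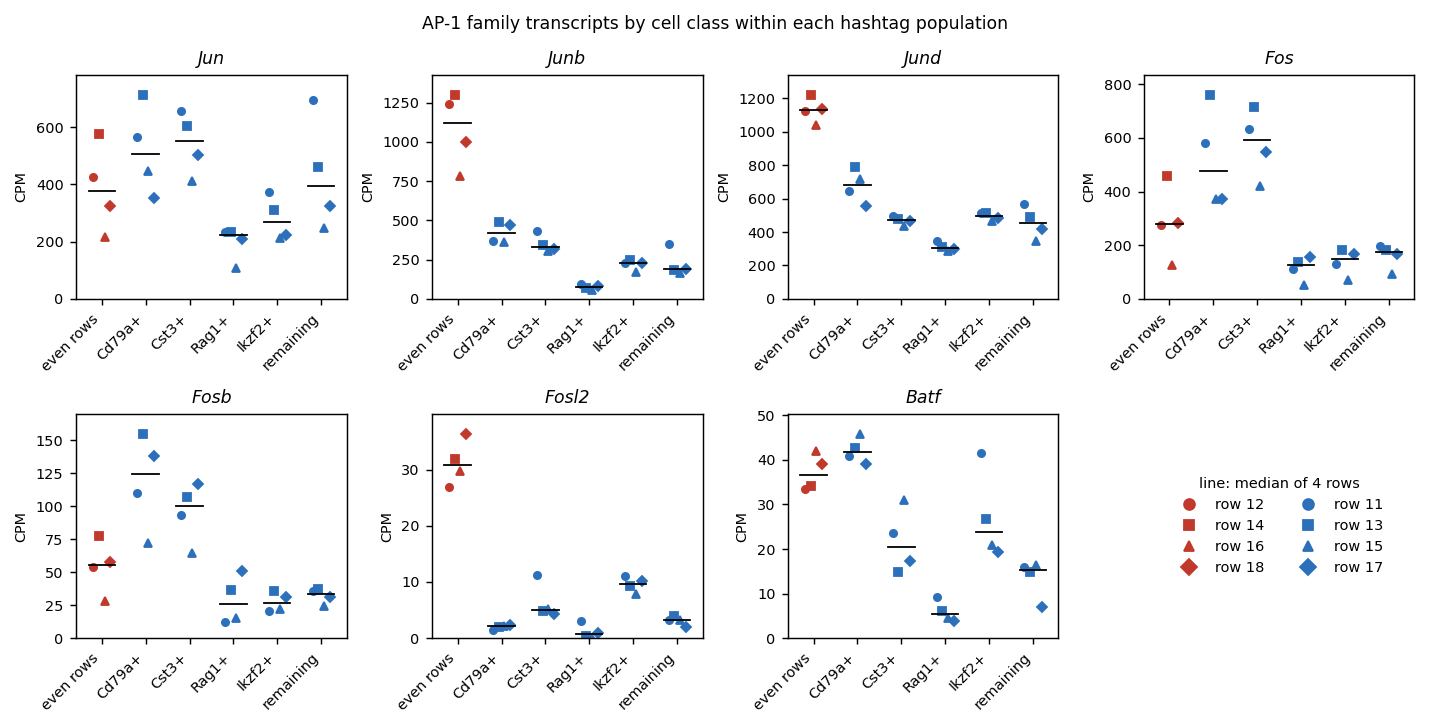
CPM of each member (vertical axes, linear from 0, scaled per gene) in the even-numbered rows and in the 5 classes of the odd-numbered rows; each point is 1 row and the black line is the median of 4. Junb, Jund and Fosl2 are highest in the even-numbered rows, Fos and Fosb in the Cd79a+ and Cst3+ classes, and the Rag1+ class has the lowest median for all 7 genes.

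Ikzf2+ cells were then set against each of the other classes within the same row, as the class that holds the Helios+ cells with high Nr4a1 (244 to 355 CPM). A gene was called when it differed at least 2-fold in the same direction in all 4 rows, after 10 CPM were added. Against Rag1+ cells, Junb and Batf were called higher, where 3.70% of 7019 genes were called higher and 0.328% lower. The log2 ratio of Junb was 1.23, 1.70, 1.43 and 1.38 in rows 11, 13, 15 and 17, a median of 2.65-fold. That of Batf was 1.42, 1.19, 1.09 and 1.09, a median of 2.20-fold, on 4 to 13 UMIs per row in Rag1+ cells. Batf passed the filter of 20 CPM only through Ikzf2+ cells (median 23.9 CPM against 5.35), so that its call is no support for a difference, and it was not tested with a filter of 50 CPM. Jund was higher in 4 of 4 rows without reaching the limit (median log2 ratio 0.69), as were Jun (0.52) and Fos (0.30), and Fosb was higher in 2 rows and lower in the other two. Both calls ended in cells with at most 4000 genes (medians 1.16 for Junb and 1.21 for Batf) and with at least 2 Rag1 UMIs and 1 Ikzf2 UMI as the limits (1.14 and 1.09), and with 50 CPM added in place of 10 (1.06 and 0.42). In 3 rows the median UMIs per Rag1+ cell were 14409 to 15274, against 5270.5 to 5962 in Ikzf2+ cells of the same rows, and in row 11 they were 3684.5 against 4611. The part of this depth in the difference was not tested.

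Against Cd79a+ cells, Fos and Fosb were called lower in Ikzf2+ cells, where 5.92% of 7429 genes were lower and 6.34% higher. Fos had a median log2 ratio of -2.03 (from -2.24 to -1.12) and Fosb of -1.85 (from -1.99 to -1.36). Jun (-0.84) and Junb (-0.99) were lower in 4 of 4 rows and missed the limit in 2 rows each, and Batf was lower in 3. In cells of 3000 to 4000 UMIs, a range chosen after the data were seen, rows 11 and 13 had enough cells of both classes, and there Fos (-1.19) and Fosb (-1.91) were still at least 2-fold lower. The call of Fos was lost in cells with at most 4000 genes (median -1.76), and those of Fos (-1.80) and Fosb (-1.20) were lost with 50 CPM added. Against Cst3+ cells the same 2 genes were called lower, Fos with a median log2 ratio of -2.05 and Fosb with -1.49 (-0.95 and no call with 50 CPM added), where 6.07% of 7424 genes were lower and 2.73% higher. Jund differed little there (0.07), and Jun was lower by a median log2 ratio of -0.93. The 4 comparisons share the Ikzf2+ cells, and their calls are given side by side for that reason.

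Against the remaining cells no member was called, at a background of 0.825% higher and 0.0142% lower of 7027 genes. The median log2 ratios were -0.54 for Jun, 0.15 for Junb, 0.14 for Jund, -0.19 for Fos, -0.08 for Fosb and 0.68 for Batf. Jun was lower and Batf higher in 4 of 4 rows. Batf passed the filter of 20 CPM only through Ikzf2+ cells (median 23.9 CPM against 15.3), so that its direction is no support for a difference. Here and in the other comparisons, the share of all genes with the same direction in every row was not counted. In cells of 3000 to 4000 UMIs all 4 rows had enough cells of both classes, and again no member was called. The median log2 ratios there were -1.18 for Jun, -0.44 for Junb, 0.26 for Jund, 0.26 for Fos, -0.32 for Fosb and 1.41 for Batf. That of Batf rested on 0 to 2 UMIs per row in the remaining cells.

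The even-numbered rows were next set against Ikzf2+ cells, with a gene called when the 4 values of one side lay wholly above those of the other and the medians differed at least 2-fold. Junb, Jund and Fosl2 were called higher in the even-numbered rows, where 7.19% of 7371 genes were called higher and 10.0% lower. The log2 ratio of the medians was 2.24 for Junb (4.73-fold), 1.17 for Jund (2.24-fold) and 1.05 for Fosl2 (2.07-fold). Fosl2 passed the filter only through the even-numbered rows, so that its call is no support for a difference; it fell to 0.44 with 50 CPM added and was not tested with a filter of 50 CPM. Fos (0.87), Fosb (0.84), Jun (0.48) and Batf (0.46) overlapped between the sides or stayed below the limit, and the median over all genes tested was -0.19. Cells of the even-numbered rows were shallower, with median UMIs per cell of 3258 to 3804 against 4611 to 5962. In cells of 3000 to 4000 UMIs Junb was still called (1.48), whereas Jund (0.76), Fosl2 (0.45) and Batf (-0.22) were not, and in cells with at most 4000 genes Jund (0.89) and Fosl2 (0.72) also lost the call.

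The share of cells with a UMI gave a similar order for Junb and Fosl2 once each cell had been thinned to 1500 UMIs. Thinning left out 0 to 72 cells per row and class. Junb was found in 59.5% to 73.5% of cells of the even-numbered rows (80.2% to 87.3% without thinning), in 21.4% to 36.7% of Ikzf2+ cells (61.1% to 71.1%) and in 10.7% to 22.1% of Rag1+ cells (44.4% to 56.0%). Fosl2 was found in 4.22% to 5.23%, 1.27% to 2.53% and 0% to 1.47% of the thinned cells of the same classes. The 0 of 149 Rag1+ cells of row 13 have an exact upper limit of 2.45%. Other members did not all follow this order. Fos was found in more Rag1+ than Ikzf2+ cells in row 11 (23.5% against 21.5%) and row 17 (31.1% against 26.0%), but in fewer in rows 13 and 15. Jun was found in more Rag1+ cells in row 17 (31.1% against 27.8%), as was Fosb in rows 13 and 17. Batf in Ikzf2+ cells of row 11 (6.96%) lay above its share in every even-numbered row (4.69% to 5.90%). No class here is known to lack Junb, and the Rag1+ values are given as the lowest measured.

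Within the even-numbered rows, Fos, Jun and Fosb varied more than nearly all other genes. A spread of at least 1.5-fold between the highest and the lowest row was reached by 4 of 7 members, Fos (3.45-fold), Jun (2.61-fold), Fosb (2.28-fold) and Junb (1.66-fold), where 2.32% of 6281 genes reached it. Only 7 genes had a larger spread than Fos, 13 than Jun, 23 than Fosb and 73 than Junb. Batf (1.20-fold), Fosl2 (1.25-fold) and Jund (1.17-fold) stayed below, and 2619 genes varied more than Jund. Row 16 was the lowest and row 14 the highest for Jun, Junb, Jund, Fos and Fosb.

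The spread rested in part on single rows. Without row 16, which had the fewest cells (577), Fos kept a log2 spread of 0.71 in place of 1.79 and Jun 0.81 in place of 1.38, while Fosb (0.46) and Junb (0.38) fell below 1.5-fold. Without row 14 the log2 spread was 1.11 for Fos, 0.96 for Jun and 0.81 for Fosb. In cells of 3000 to 4000 UMIs the log2 spread was 1.66 for Fos, 1.17 for Jun and 0.87 for Fosb, but 0.31 for Junb, which no longer reached the limit, and 0.61 for Batf, which now did. Fos then had 258, 473, 143 and 293 CPM in rows 12, 14, 16 and 18, and Junb had 1329, 1330, 1068 and 1190 CPM.

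**Figure D3:**
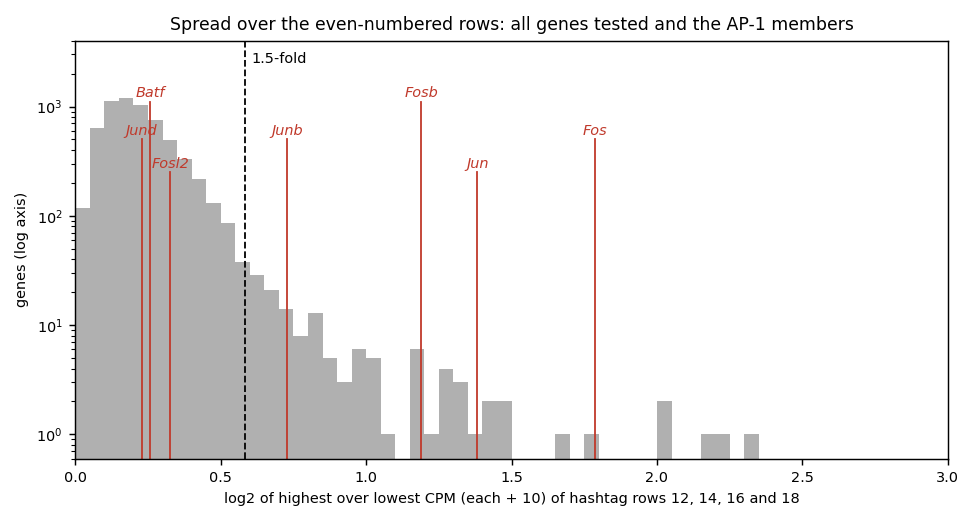
Number of genes (vertical axis, log scale) by log2 of the highest over the lowest CPM of rows 12, 14, 16 and 18, each with 10 CPM added (horizontal axis); grey bars are the 6281 genes tested and red lines the members, whose differing heights only keep the names apart. Fos, Jun and Fosb lie in the far right tail, Junb just past the dashed 1.5-fold line, and Jund, Batf and Fosl2 among most genes.

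Genes known to respond to stress and to the handling of cells varied over the same rows. Hspa1a, an inducible chaperone, had 605, 741, 142 and 238 CPM in rows 12, 14, 16 and 18 (4.94-fold), and Hspa1b had 1021, 1316, 317 and 457 CPM (4.06-fold). Dnajb1 (2.32-fold), Klf6 (1.82-fold), Cd69 (1.70-fold) and Zfp36 (1.58-fold) also reached 1.5-fold, so that 6 of 16 tested genes of the immediate-early and handling list were called. These 6 were lowest in row 16 and highest in row 14, as Fos was. Other genes of the same list did not follow: Egr1 had 77.8, 94.8, 104 and 105 CPM, Ier2 had 396, 366, 309 and 330 CPM, and Nfkbia had 291, 283, 298 and 288 CPM. Whether handling had a part in the spread of the AP-1 genes was not tested. Kidins220 had 28.4, 35.2, 17.5 and 20.4 CPM in these rows.

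The other lists were read over the same rows, beside the 2.32% of all genes that reached 1.5-fold. Of the list of MAP kinases and SRF, which carry the signal to the Fos and Jun promoters, 0 of 12 tested genes reached 1.5-fold, with Srf at 35.3, 35.9, 35.5 and 42.5 CPM. Of the partner genes (NFAT, Ets1, Irf8) 0 of 5 tested did. Among other bZIP genes Atf3 (1.60-fold) and Bach1 (1.55-fold) were called of 7 tested. The feedback phosphatase gene Dusp1 had 610, 844, 329 and 522 CPM (2.52-fold) and was the 1 gene called of 3 tested on the feedback list. The list medians were 0.73 on the log2 scale for the AP-1 genes, 0.47 for feedback genes, 0.45 for immediate-early and handling genes, 0.24 for other bZIP genes, 0.18 for partners and 0.17 for MAP kinases and SRF, beside 0.20 over all genes tested.

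In the odd-numbered rows Fos and Junb were lowest in row 15 in all 5 classes, and 4.19% of 4609 genes had the same lowest row in every class. Jun and Jund were lowest in row 15 in 4 of 5 classes and Fosb in 3. The spread of Fos over the odd-numbered rows was 2.40-fold in Ikzf2+ cells, 2.73-fold in Rag1+ cells, 2.02-fold in the remaining cells, 2.02-fold in Cd79a+ cells and 1.68-fold in Cst3+ cells. Junb varied 2.02-fold in the remaining cells, as Fos did, and less than Fos in the other 4 classes (1.35-fold to 1.499-fold). Fosb varied 2.75-fold in Rag1+ cells, 2.01-fold in Cd79a+ cells and 1.70-fold in Cst3+ cells. It stayed under 1.5-fold in Ikzf2+ cells (1.499) and in the remaining cells (1.39). Its lowest value in Rag1+ cells was that of row 11, on 8 UMIs (12.3 CPM, interval 5.30 to 24.2). Rag1+ cells of row 11 had a median of 3684.5 UMIs, against 14409 to 15274 in the other rows. The part of this depth in the spread was not tested. The share of all genes that varied at least 1.5-fold was 5.52% in Ikzf2+, 11.6% in Rag1+, 16.1% in remaining, 33.4% in Cd79a+ and 11.7% in Cst3+ cells. The log2 spread of Jund was 0.14 in Ikzf2+ cells and 0.27 in Rag1+ cells. Hspa1a in Ikzf2+ cells had 259, 202, 126 and 70.4 CPM in rows 11, 13, 15 and 17, so that there its lowest row was not that of Fos.

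Cell state in the even-numbered rows made no difference that passed the limit. Cells with Izumo1r and without Ccl5 (Izumo1r encodes folate receptor 4) were set against cells with at least 3 UMIs of Ccl5, a chemokine of effector cells, and no member differed at least 1.5-fold the same way in all 4 rows, where 0.218% of 6422 genes were higher and 0.405% lower. The largest median log2 ratio was that of Fosb at -0.36, from -0.67 to 0.05. Fos was lower in Izumo1r+ Ccl5- cells in 4 of 4 rows by a median log2 ratio of -0.25, with 259, 425, 116 and 265 CPM in rows 12, 14, 16 and 18 against 307, 441, 141 and 319 CPM in Ccl5+ cells. Jund was higher in 4 of 4 rows by only 0.08.

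Depth of the cell, in contrast, went with a difference past the limit in 1 member, Fosb. The cells of each even-numbered row were split into 4 depth groups of like size by UMIs per cell. Fosb was at least 1.5-fold higher in the shallowest group than in the deepest in all 4 rows, with log2 ratios of 0.92, 1.18, 1.52 and 1.16, and was the 1 member called, where 2.13% of 6951 genes were higher and 0.101% lower. It had 93.0, 154, 63.6 and 126 CPM in the shallow group and 44.5, 62.1, 15.7 and 50.8 CPM in the deep one. Fos (median log2 ratio 0.71), Jun (0.69), Fosl2 (0.95), Junb (0.51) and Jund (0.33) were higher in shallow cells in 4 of 4 rows without reaching the limit in each, and Batf was not (-0.03), beside a median of 0.21 over all genes tested. By their median ratio, 4934 of the 6951 genes tested were higher in shallow cells, so that this direction is shared by most genes. Without row 12, Fosl2 passed the limit too. The shallow group had 1982 to 2402 median UMIs per cell against 4472 to 5522. It also had a higher median mitochondrial share, 2.09% to 2.72% against 1.54% to 1.65%, and more of the nuclear RNA Malat1, 7798 to 12839 CPM against 4033 to 5628 CPM. Their part in the difference was not tested.

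**Figure D4:**
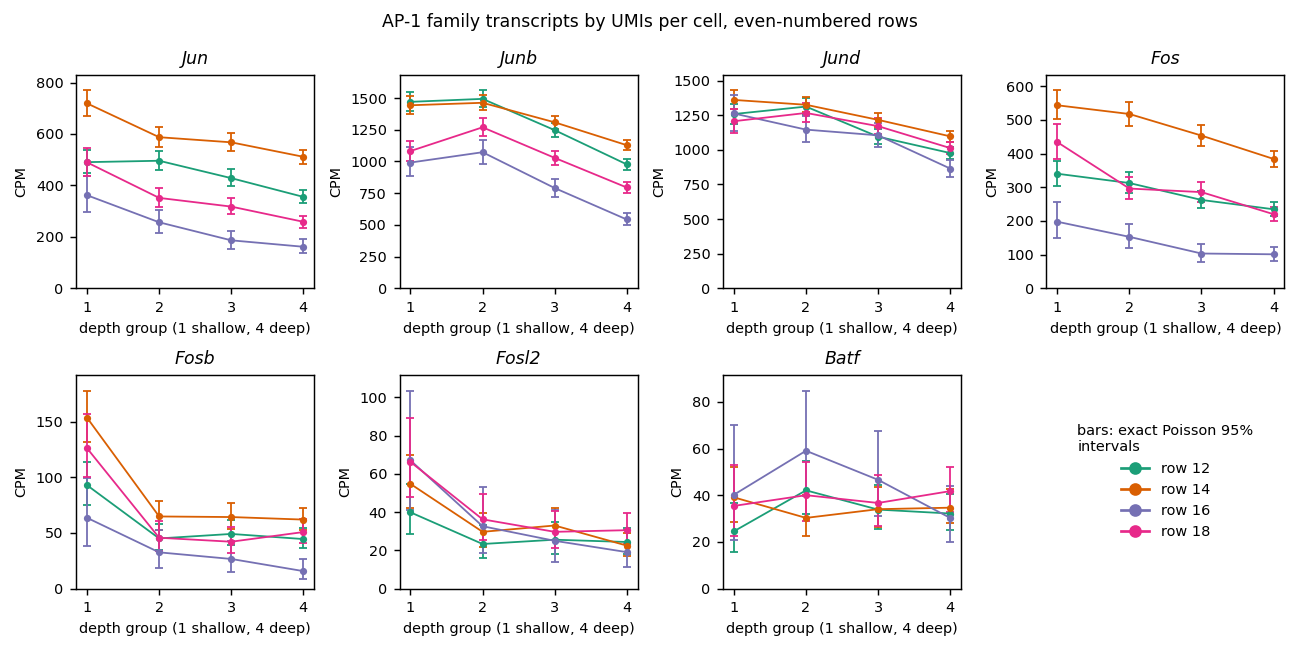
CPM of each member (vertical axes, linear from 0, scaled per gene) in 4 groups of cells by UMIs per cell, from shallow (1) to deep (4), in rows 12, 14, 16 and 18; bars are exact Poisson 95% intervals. Fosb drops after the shallow group, Jun, Junb, Jund and Fos are lower in the deep than in the shallow group, Batf shows no common direction, and row 16 stays lowest for Jun and Fos in every group.

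The highest and the lowest row were the same at each depth for Fos and Jun. In the deep group Fos had 235, 384, 101 and 220 CPM in rows 12, 14, 16 and 18, and in the shallow group 340, 544, 198 and 434 CPM, so that row 14 was highest and row 16 lowest in both. Jun had 355, 511, 161 and 258 CPM in the deep group and 490, 719, 362 and 490 CPM in the shallow one.

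Transcripts of the members were also counted together in single cells, each thinned to 1500 UMIs. Jun was found in 45.6%, 55.4%, 31.8% and 42.3% of the cells with a Fos UMI in rows 12, 14, 16 and 18, and in 35.4%, 44.8%, 21.7% and 31.1% of the cells without one. The difference was 10.1 to 11.2 percentage points in 4 of 4 rows, although the shares themselves differed widely between the rows. In Ikzf2+ cells of rows 11, 13, 15 and 17 Jun was found in 38.2%, 39.4%, 32.3% and 33.9% of cells with Fos against 30.6%, 29.7%, 21.7% and 25.6% of cells without it. The intervals within single rows of the Ikzf2+ class overlap, since only 31 to 132 cells there held a Fos UMI. Those of row 16 overlap too, at 23.1% to 41.5% with Fos and 17.9% to 25.8% without it.

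Junb and Fosb were likewise found more often beside Fos. Junb was higher by 9.93 to 14.3 points in the even-numbered rows and by 12.4 to 19.0 points in Ikzf2+ cells. Fosb was found in 9.96%, 14.1%, 5.61% and 13.2% of cells with Fos and in 5.88%, 7.08%, 4.46% and 7.17% of cells without it in the even-numbered rows. The intervals of Fosb overlap in row 16, at 2.09% to 11.8% with Fos and 2.75% to 6.81% without it. In Ikzf2+ cells Fosb was found in 11.8%, 12.9%, 9.68% and 13.6% against 3.23%, 4.12%, 2.83% and 2.38%, a median difference of 8.65 points on few cells. Jund was higher beside Fos by 5.89 to 9.42 points and by 4.51 to 15.5 points in these 2 sets. Batf (-1.35 to 0.40 points) and Fosl2 (-0.41 to 2.50 points) had no common direction in the even-numbered rows. The cells of a row were thinned to the same total, but they differ in state and RNA quality, and the part of these in the joint detection was not tested.

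**Figure D5:**
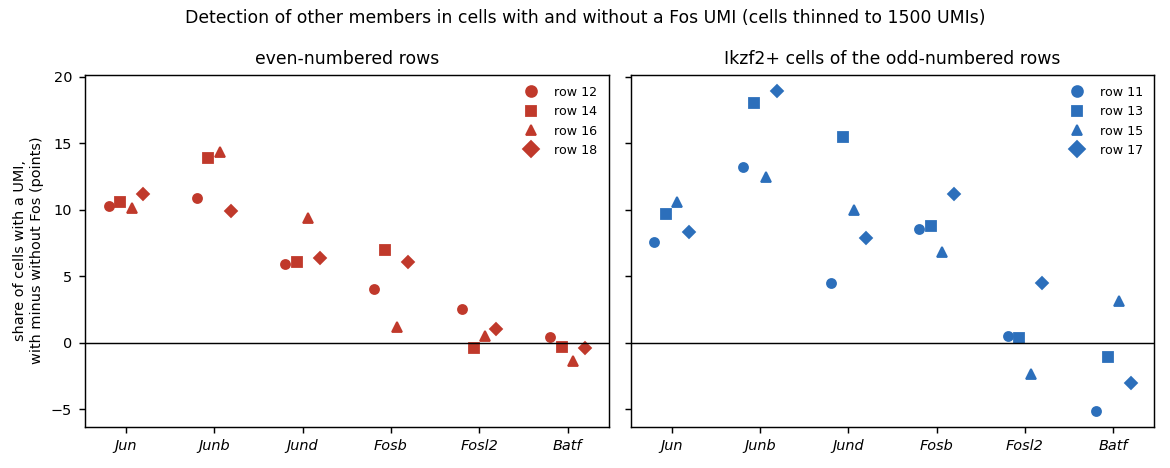
Difference in the share of cells with a UMI of each member between cells with and without a Fos UMI (vertical axis, percentage points, after thinning to 1500 UMIs), in the even-numbered rows (left) and in Ikzf2+ cells of the odd-numbered rows (right); each point is 1 row and the horizontal line marks 0. Jun, Junb, Jund and Fosb lie above 0 in all 8 rows, and Fosl2 and Batf on both sides of it.

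The patterns of the members were also compared over the 24 groups of row and class. The genes most like Jun were Fos (Pearson's r of log2 CPM 0.85), Pim1 (0.82) and Tsc22d3 (0.80), among 5712 genes compared. Those most like Fos were Fosb (0.93), Tsc22d3 (0.91) and Tap1 (0.89), and Fosb was most like Fos, Plekhm3 (0.89) and Slc9a7 (0.89). Junb was most like Runx3 (0.98), Msn (0.97) and Tmem59 (0.96), Jund most like Sipa1 (0.98), Clcf1 (0.97) and Lncpint (0.97), Fosl2 most like Rgs3 (0.97), Cd7 (0.96) and Iffo2 (0.96), and Batf most like Btg1 (0.91), Sdf2 (0.91) and Glmp (0.91). Between members, r was 0.94 for Junb and Jund, 0.79 for Junb and Batf, 0.60 for Junb and Fos, 0.52 for Batf and Fosl2, 0.49 for Batf and Fos, 0.09 for Fosl2 and Fos, and -0.01 for Fosl2 and Fosb. These are descriptions over groups that share 1 library and differ in depth.

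The other genes of the pathway were read from 5 lists. Against Rag1+ cells, 8 of 18 tested genes of the immediate-early and handling list were called higher in Ikzf2+ cells (Ier2, Egr1, Egr2, Nr4a1, Zfp36, Zfp36l1, Klf2 and Cd69) and 0 lower, with a list median log2 ratio of 0.85, beside 0.60 for the AP-1 genes and 0.05 over all genes, of which 3.70% were called higher. Of the feedback genes, which damp MAP kinase signalling, 3 of 6 were called (Dusp2, Dusp4 and Dusp5). In the other bZIP list 1 of 5 was called (Bach2, a repressor that binds AP-1-like sites), of the partners 1 of 3 (Nfatc1), and of MAP kinases and SRF 1 of 13 (Elk3). Medians in Rag1+ cells were under 20 CPM at least for Dusp4 (8.10), Dusp5 (10.2), Egr1 (14.8), Egr2 (0.238), Bach2 (4.20) and Elk3 (12.4). These genes passed the filter only through Ikzf2+ cells, so that their calls are no support for a difference. Fos itself was not called in that comparison.

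Between the even-numbered rows and Ikzf2+ cells, 7.19% of all genes were called higher and 10.0% lower, and the lists held calls of both kinds. Dusp1 and Dusp2 were called higher and Dusp4, Dusp10 and Spry1 lower, of 6 feedback genes tested. Ier5, Zfp36, Btg2, Klf2 and Klf6 were called higher and Nr4a1 and Hsp90aa1 lower, of 18. Nr4a1, a reporter of receptor signalling, had a median of 326 CPM in Ikzf2+ cells and 12.97 CPM in the even-numbered rows, opposite in direction to Junb. Atf3 and Maf were called higher and Bach2 lower of 7 other bZIP genes, Nfatc2 higher of 5 partners, and Elk3 lower of 13 MAP kinase and SRF genes. Nr4a1, Dusp4 (median 2.85 CPM), Dusp10 (19.1 CPM) and Spry1 were under 20 CPM in the even-numbered rows, as was Atf3 in Ikzf2+ cells (1.83 CPM). These genes passed the filter only through the other side, so that their calls are no support for a difference.

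Against Cd79a+ and Cst3+ cells the partners of Batf were called with the antigen-presenting classes: Irf4 and Irf8 were lower in Ikzf2+ cells in both comparisons (5.92% and 6.07% of all genes were lower). Irf8 had a median of 854 CPM in Cst3+ cells, 192 in Cd79a+ cells and 12.9 in Ikzf2+ cells, and Irf4 had 29.3, 79.1 and 3.41 CPM. Both genes passed the filter of 20 CPM only through the other class, so that their calls are no support for a difference. In the even-numbered rows, where Batf had a median of 36.7 CPM, Irf4 had 2.49 CPM and Irf8 29.8 CPM. Batf3, which cross-presenting dendritic cells need, had a median of 174 CPM in Cst3+ cells and 1.33 CPM in Ikzf2+ cells.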

How the data were processed

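The authors deposited raw counts, UMIs per gene or hashtag row and cell barcode, made with Cell Ranger 6.0.0 and the mm10 mouse genome (annotation release: not given in the sources used here). Barcodes are those called cells, before any filter. The counts were summed per hashtag row and class and divided by the gene UMIs of the same cells (CPM). Ratios are on the log2 scale after 10 CPM were added, and a gene was tested in a comparison where its median reached 20 CPM on 1 side. The matrix is 1 pooled library without labelled replicates, so calls are limits of size and stand beside the percentage of all genes that met them. Doublets within a row were not called. Those between rows were filtered only by the 80% rule, and how many remained was not checked. Joint detection used 1 seeded thinning of each cell to 1500 UMIs.

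The 7 members and the gene lists were chosen with earlier results of these data known. The genes named are the members, the fixed lists (other bZIP genes, MAP kinases and SRF, partners, feedback, immediate-early and handling genes), the marker genes of the classes, and for each member the 3 genes of highest Pearson's r among genes with at least 50 CPM in 1 group. Promoter sequences are from RefSeq on GRCm38.p6 (all 7 members matched), gene positions from GENCODE on the same build. Alternatives changed the filters on cells, the assignment, the denominator, the value added, the gene filter, the class limits, the rows used and the thinning. Python 3.11.15, numpy 2.4.6, scipy 1.17.1, pandas 2.3.3 and matplotlib 3.10.9 were used, and the calling code was tested on simulated data.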

Additional observations from a re-analysis of the deposited data

How the results depend on the processing

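The data are 1 pooled library, and Fosl2 and Batf lost calls with the value added, the gene filter and the limit of 4000 genes. More abundant members lost calls too. Junb lost that against Rag1+ cells with at most 4000 genes, 50 CPM added or the other class limits. Jund lost that of the even-numbered rows with at most 4000 genes or 3000 to 4000 UMIs. With 50 CPM added, Fos lost the call against Cd79a+ cells, and Fosb those against Cd79a+ and Cst3+ cells. No alternative turned the direction of a called ratio. The members called higher in shallow than in deep cells numbered 1, and became 4 when cells down to 500 genes and up to 10% mitochondrial UMIs were kept, 2 with 1 CPM added in place of 10, and 1 to 2 when each row was left out in turn (2 without row 12). For Ikzf2+ against Rag1+ cells the 2 members called higher became 0 in cells with at most 4000 genes, 0 with 50 CPM added, 1 with a gene filter of 50 CPM and 0 with at least 2 Rag1 and 1 Ikzf2 UMIs. The 2 members lower than in Cd79a+ cells became 1 in cells with at most 4000 genes and 0 with 50 CPM added, and the 2 lower than in Cst3+ cells became 1 with 50 CPM added. The 3 members higher in the even-numbered rows than in Ikzf2+ cells became 1 in cells with at most 4000 genes and 1 in cells of 3000 to 4000 UMIs, an alternative chosen after the data were seen, as was the spread within classes. The 4 members that varied over the even-numbered rows became 2 to 4 when each row was left out (2 without row 16). The gain of Jun beside Fos, 10.4 points, became 11.6 points with the wider cell filter and 11.3 points after thinning to 2500 UMIs. Of the other counts 181 stayed within 1.5 times, and of single ratios 707 kept their call, 21 lost it and 7 gained one; the causes were not tested. No cells of 3000 to 4000 UMIs in sufficient number were left for the Rag1+ and Cst3+ comparisons. No paired analysis was possible because the rows carry no group or replicate number.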

Other observations

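The 2140 barcodes that passed the filters on genes and mitochondrial UMIs but were assigned to no hashtag row had a median of 7131.5 UMIs, and entered no comparison. Their levels were 434 CPM for Jun, 574 CPM for Junb, 743 CPM for Jund, 324 CPM for Fos, 71.8 CPM for Fosb, 16.8 CPM for Fosl2 and 23.6 CPM for Batf. For Junb, Jund and Fosl2 these values lay between the lowest even-numbered and the highest odd-numbered row.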
